A study of Mus musculus with 24 samples.

Results

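The comparison described here is the difference between 2 responses to sleep loss in the mouse brain: the response of RNA pulled down from Homer1a-expressing cells minus the response of whole-brain RNA. It was drawn from 20 of the 24 arrays of the study, and 45037 probe sets were measured on each. The 4 groups were pull-down after 6 h of sleep deprivation (pull-down SD, n = 6), pull-down from undisturbed mice (pull-down control, n = 6), whole brain after 6 h of sleep deprivation (whole brain SD, n = 4) and whole brain from undisturbed mice (whole brain control, n = 4). All were male mice of 12 ± 1 weeks. Sleep deprivation by gentle handling started at light onset, and every brain was taken at ZT6, that is 6 h after light onset. The 4 supernatant arrays were not used. The pull-down groups share a formaldehyde perfusion, an immunoprecipitation of poly(A) RNA on anti-FLAG beads and an amplification of the recovered RNA, whereas whole-brain total RNA was extracted by kit, and the labels name the amplification for the immunoprecipitated RNA only. The sources used here name neither the strain nor the transgene that carries the tag. The design text counts 10 sleep-deprived and 10 undisturbed mice, as many as there are arrays of each condition.

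Homer1 encodes a postsynaptic scaffold that links group I metabotropic glutamate receptors to intracellular calcium stores. Homer1a is its short form, which is induced by neuronal activity and competes with the long forms for their partners. In mRNA tagging, a FLAG-tagged poly(A)-binding protein is made in chosen cells only, so that RNA bound to it can be taken out of a whole-tissue lysate. Sleep deprivation by handling keeps mice awake during their main rest phase, and it is known to raise activity-induced genes in the forebrain and to raise plasma corticosterone.

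Values are log2 intensities, so that 1 unit is a factor of 2. The array medians were 4.91 ± 0.33 in pull-down SD and 5.04 ± 0.44 in pull-down control, against 6.09 ± 0.06 in whole brain SD and 6.17 ± 0.05 in whole brain control (mean ± SD). The 18S ribosomal RNA probe sets read 8.49 ± 1.55 and 8.59 ± 1.59 in pull-down SD and control, and 13.83 ± 0.03 and 13.86 ± 0.07 in whole brain SD and control. The 3′ minus 5′ difference of Gapdh, which grows where copies of the transcript are short, was 5.01 ± 0.80 and 4.84 ± 0.83 in pull-down SD and control, and 2.86 ± 0.10 and 2.65 ± 0.12 in whole brain SD and control. Pull-down arrays thus spread far more among themselves than whole-brain arrays. A pair of components held 51.0% and 20.2% of the variance within groups, with pull-down controls 11 and 4 at the ends of the first and pull-down SD 1 and pull-down control 3 farthest out on the second. The median SE of a response was 0.291 in pull-down and 0.129 in whole brain, and the 95% interval of their difference reached a median of 0.784 to either side. That interval pools the spread of both extracts. With the spread taken per extract the median was 0.663, and 0 probe sets were called. These intervals are not adjusted for the number of probe sets, so differences well above those sizes could also fail to pass. Mapk12, with a difference of 1.37, did not pass. In bulk RNA, fewer cells of a type and less RNA per cell cannot be told apart.

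No probe set passed as responding differently in the 2 extracts. The limma interaction test called 0 of 45037 probe sets at an adjusted p of 0.05. The lowest unadjusted p was 0.00238, and its adjusted p was 1. At an unadjusted p under 0.05, the difference was above 0 for 90 probe sets (0.200%) and below 0 for 62 (0.138%), 0.338% together, a smaller share than an even spread of p-values gives. Within pull-down alone, limma called 0 probe sets, with 222 higher (0.493%) and 208 lower (0.462%) at an unadjusted p under 0.05, 0.955% together. Within whole brain it called 21 probe sets, 16 that rose (0.0355%) and 5 that fell (0.0111%), with 947 higher (2.10%) and 3979 lower (8.83%) at an unadjusted p under 0.05, 10.9% together. After centring each array on its median, whole brain had 40 calls that rose and 6 that fell, and the unadjusted counts were 2434 higher and 1673 lower.

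Across the 45037 probe sets, which are not independent replicates, the 2 responses correlated at a Pearson r of 0.297 and a Spearman rho of 0.285. The responses share no array. Over 18193 genes with 1 probe set each, r was 0.376. The correlation was 0.875 over 22 activity-induced transcription factors, 0.644 over 24 activity-induced effectors, 0.566 over 25 glucocorticoid-induced genes and 0.644 over 25 chaperones of the endoplasmic reticulum (ER). It depended on single pull-down arrays: over all probe sets r was 0.111 without pull-down control 11 and 0.162 without pull-down SD 1. Of all probe sets, 36.1% moved the same way with the larger size in pull-down, 27.1% moved the same way with the smaller size in pull-down, and 36.8% had opposite signs. The difference in response was above 0 for 54.9% of probe sets, with a median of 0.028.

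**Figure D1:**
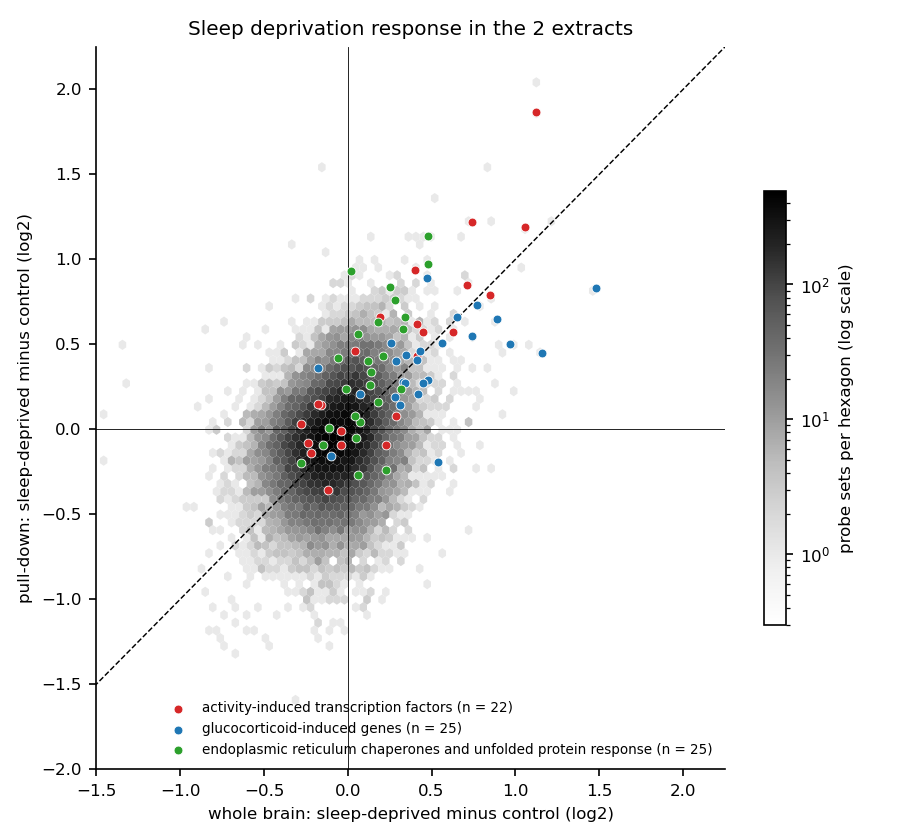
Sleep-deprived minus control difference (log2) in pull-down on the vertical axis against whole brain on the horizontal axis, for 45037 probe sets (grey hexagons, darker with more probe sets on a log scale) and the members of 3 gene lists (coloured points); the dashed line marks equal responses. Activity-induced transcription factors (red) and ER genes (green) lie mostly on or above the line where they are high, and glucocorticoid-induced genes (blue) lie more often below it, with 16 of 25 below.

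The probe sets with the smallest interaction p are given as a description, since none passed the test. The first was Mapk12, the gamma form of the p38 stress kinases (1449283_a_at). It read 4.87, 5.13 and 6.48 (lowest, median and highest) in pull-down SD and 4.45, 4.67 and 5.38 in pull-down control. In whole brain it read 6.99, 6.63, 7.13 and 6.29 in SD and 7.48, 7.45, 7.60 and 7.48 in control. The pull-down groups overlapped, while all 4 sleep-deprived whole brains lay below all 4 controls. The response was 0.63 ± 0.30 in pull-down and −0.74 ± 0.16 in whole brain (log2 difference ± SE), a difference of 1.37 with a 95% interval of 0.54 to 2.21.

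Synj2, which encodes the phosphoinositide phosphatase synaptojanin 2 (1452344_at), read 6.37, 6.61 and 7.16 in pull-down SD and 5.32, 5.73 and 6.21 in pull-down control, without overlap. In whole brain it read 8.29, 7.86, 8.21 and 8.24 in SD and 8.40, 7.95, 8.01 and 8.39 in control, with full overlap. Its difference in response was 0.92 ± 0.30. The secreted matricellular protein gene Ccn4 (1448594_at) had the same form, with responses of 0.91 ± 0.25 in pull-down and −0.02 ± 0.13 in whole brain. Pull-down SD arrays of Ccn4 ran from 7.30 to 8.39 and pull-down controls from 6.54 to 7.26. The other named probe sets with a more positive response in pull-down were Hbs1l, a ribosome rescue factor (0.92), Tmem107, a protein of the ciliary transition zone (1.43), Tmem200c (0.80) and Rrbp1, a ribosome-binding protein of the ER (0.85). Tmem107 responded by 1.10 in pull-down and −0.34 in whole brain. For the other ones the whole-brain response was the larger in size: Hbs1l 0.22 and −0.70, Tmem200c 0.29 and −0.51, and Rrbp1 0.05 and −0.80, in pull-down and whole brain. The pull-down SD means of Hbs1l (4.23) and Rrbp1 (3.44) lay below the mean of the array medians, 4.91.

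In the other direction, Akap10, which encodes an anchor for protein kinase A (1441830_x_at), read 2.99, 3.93 and 4.60 in pull-down SD and 4.29, 4.76 and 5.30 in pull-down control. In whole brain it read 6.27, 5.13, 6.41 and 5.85 in SD and 5.26, 5.66, 5.56 and 5.30 in control. Both pairs of groups overlapped. The mean of Akap10 in pull-down SD, 3.88, was toward the low end of these arrays, whose medians averaged 4.91. The responses were −0.89 ± 0.30 in pull-down and 0.47 ± 0.22 in whole brain, and their difference was −1.36 (95% interval −2.26 to −0.46). Strip2, a partner of the striatin phosphatase and kinase complex (1433847_at), responded by −0.25 ± 0.27 in pull-down and 0.75 ± 0.15 in whole brain. Its sleep-deprived whole brains read 7.09, 7.26, 7.02 and 7.22, above all controls at 6.59, 6.55, 5.93 and 6.51. The remaining ones were Rprd2, which binds the tail of RNA polymerase II (−1.26), Osgepl1, a mitochondrial tRNA-modifying enzyme (−1.11), Zswim1 (−0.86), Inca1 (−0.82), 4930503L19Rik (−0.76), the immune checkpoint receptor gene Vsir (−0.74) and the receptor-sorting gene Gprasp1 (−0.72). In pull-down and whole brain, Rprd2 responded by −1.59 and −0.33, Osgepl1 by −1.04 and 0.07, and Zswim1 by −0.81 and 0.05. Inca1 had −0.47 and 0.35, 4930503L19Rik −0.51 and 0.25, Vsir −0.52 and 0.22, and Gprasp1 −0.51 and 0.21. The pull-down SD means of Vsir (3.91), Inca1 (4.38) and Zswim1 (4.44) also lay below 4.91.

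Responses of opposite sign with an unadjusted p under 0.05 in each extract were seen at 2 probe sets, 0.00444% of all. Slc7a1, the cationic amino acid transporter CAT1 (1454992_at), read 5.43, 5.70 and 7.33 in pull-down SD and 4.76, 5.19 and 5.90 in pull-down control, against 6.45, 6.72, 6.64 and 6.56 in whole brain SD and 7.44, 7.19, 6.91 and 6.65 in whole brain control. The responses were 0.72 ± 0.31 in pull-down and −0.45 ± 0.15 in whole brain. Foxp1, a forkhead transcription factor of cortical and striatal neurons (1438802_at), went the other way, with −0.78 ± 0.34 in pull-down and 0.34 ± 0.13 in whole brain. It read 2.72, 3.86 and 4.81 in pull-down SD and 4.06, 4.59 and 5.34 in pull-down control, against 6.36, 6.49, 6.78 and 6.49 in whole brain SD and 6.10, 6.12, 6.51 and 6.04 in whole brain control. Groups of both genes overlapped in both extracts. The mean of Foxp1 in pull-down SD, 3.83, was toward the low end of these arrays, whose medians averaged 4.91.

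Other probe sets of the same genes were read beside these. The 20 probe sets named in the last 4 paragraphs, together with Dusp4 and Spry4 below, had 45 other probe sets for 17 of the genes. Of these 45, 30 had the same sign of the difference and 0 had an unadjusted interaction p under 0.05 in limma. The other Mapk12 probe set differed by 0.15, the 2 other Slc7a1 probe sets by −0.06 and 0.22, and the 7 other Foxp1 probe sets by −0.39 to 0.44. All 3 other Akap10 probe sets shared its sign, at −0.66 to −0.21.

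Of the genes that the study is built on, Homer1 rose in whole brain at 2 of its 6 probe sets, and no probe set of Homer1, Ptgs2, Nptx2 or Jph3 passed limma in pull-down or as a difference. Homer1 probe set 1436387_at read 10.74, 11.04 and 11.56 in pull-down SD and 8.82, 10.09 and 10.28 in pull-down control, where control 11 was the lowest. It read 9.51, 9.38, 9.49 and 9.59 in whole brain SD and 8.62, 8.63, 8.96 and 8.36 in whole brain control. Neither pair of groups overlapped. The response was 1.20 ± 0.27 in pull-down (2.30-fold) and 0.85 ± 0.13 in whole brain (1.80-fold), where it passed the test (adjusted p = 0.0406). The difference of 0.36 had a 95% interval of −0.36 to 1.07, so neither an equal response nor one that is larger in pull-down by about 1 log2 unit lay outside it. Without pull-down control 11 the difference was 0.14. The other 5 Homer1 probe sets had differences of 0.22 to 0.73, all above 0, with responses of 0.36 to 1.57 in pull-down and 0.13 to 0.84 in whole brain. Which Homer1 form each probe set measures was not given in the sources used here.

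Ptgs2, the inducible cyclooxygenase that makes prostaglandins (1417262_at), read 7.18, 7.51 and 7.80 in pull-down SD and 5.24, 6.20 and 6.86 in pull-down control, without overlap. In whole brain it read 5.50, 5.99, 5.93 and 6.01 in SD and 5.52, 5.13, 5.56 and 5.07 in control, where SD 21 lay among the controls. The response was 1.35 ± 0.28 in pull-down and 0.54 ± 0.15 in whole brain, and the difference was 0.81 (95% interval 0.05 to 1.57, unadjusted p = 0.0371, adjusted p = 1). Its second probe set differed by 0.36. Nptx2, a secreted pentraxin that gathers glutamate receptors at excitatory synapses (1420720_at), responded by 0.79 ± 0.25 in pull-down and 0.30 ± 0.15 in whole brain. Jph3, a junctophilin that ties the ER to the plasma membrane (1443724_at), responded by 0.50 ± 0.23 in pull-down and 0.21 ± 0.13 in whole brain. The second probe set of Nptx2 read otherwise, with 0.03 ± 0.23 in pull-down and −0.16 ± 0.18 in whole brain, and that of Jph3 had 0.27 ± 0.49 in pull-down and 0.10 ± 0.11 in whole brain. These 4 genes were picked by the study on these samples, so their direction is no independent evidence.

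**Figure D2:**
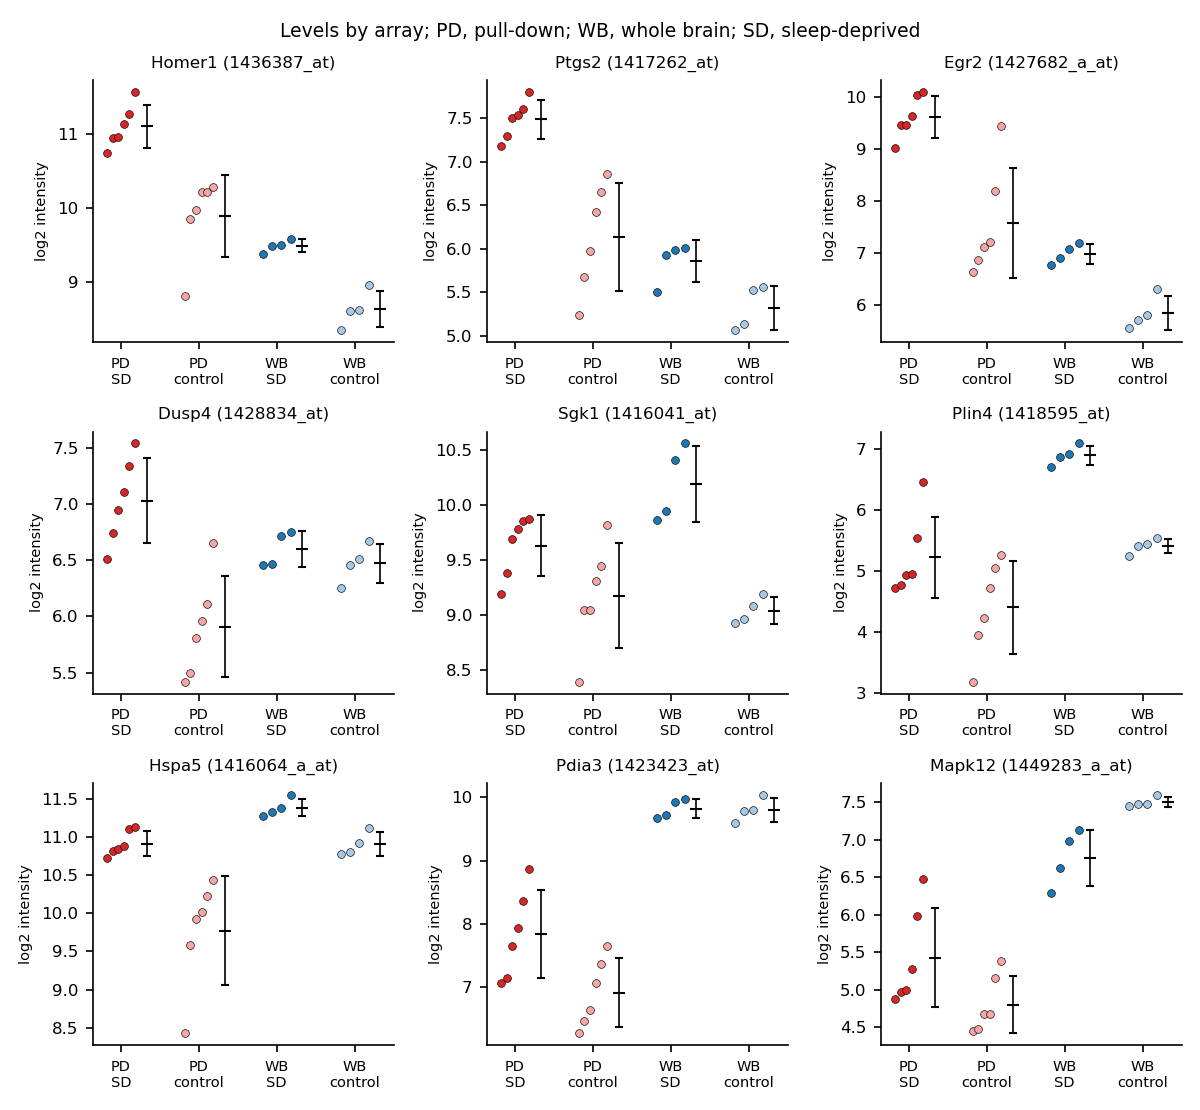
Log2 intensity of 9 probe sets on each array, in pull-down SD (dark red, n = 6), pull-down control (light red, n = 6), whole brain SD (dark blue, n = 4) and whole brain control (light blue, n = 4); points are arrays and the bar beside them is the mean ± SD. The pull-down groups of Homer1, Ptgs2 and Hspa5 do not overlap, and for Sgk1 and Plin4 the whole-brain groups are separate while the pull-down groups overlap.

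Of the activity-induced transcription factors, 16 of 22 responded more positively in pull-down, against 56.8% of all 18193 genes. The median response of the list was 0.45 in pull-down and 0.26 in whole brain, and the median difference was 0.13, against 0.03 over all genes. After quantile normalization 13 of 22 were above 0, and over all the alternatives 11 to 18 were, with medians of 0.00 to 0.26. In limma, 0 of the 22 passed in pull-down or as a difference, and Fos and Egr2 passed in whole brain, where 0.0550% of genes rose. At an unadjusted p under 0.05, 8 of 22 were higher in pull-down and 11 in whole brain, against 0.698% and 2.63% of genes. Egr2, a zinc finger factor of the early growth response family (1427682_a_at), had the highest pull-down response of all probe sets. It read 9.03, 9.56 and 10.1 in pull-down SD and 6.64, 7.17 and 9.45 in pull-down control, overlapping through 1 control. It read 7.19, 6.90, 6.77 and 7.08 in whole brain SD and 6.32, 5.56, 5.81 and 5.71 in whole brain control. The responses of 2.04 ± 0.40 and 1.14 ± 0.16 differed by 0.91 (95% interval −0.20 to 2.01). The list itself measured Egr2 by its other probe set, with responses of 1.87 in pull-down and 1.12 in whole brain.

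Fos, the partner of Jun in the AP-1 complex (1423100_at), read 8.03, 9.20 and 9.44 in pull-down SD and 7.07, 7.37 and 9.45 in pull-down control, against 6.94, 6.84, 6.81 and 6.82 in whole brain SD and 5.70, 6.11, 5.71 and 5.64 in whole brain control. The pull-down groups overlapped, and the whole-brain groups did not. The responses were 1.19 ± 0.38 in pull-down and 1.06 ± 0.12 in whole brain. The interval of the difference, −0.92 to 1.19, was wide. Control 8 gave the highest pull-down control reading of Fos and of Egr2, 9.45 for each. Without it the difference was 0.47 for Fos and 1.28 for Egr2, against 0.13 and 0.91 with all arrays. Fosl2, another AP-1 subunit (1437247_at), responded by 1.22 ± 0.27 in pull-down and 0.74 ± 0.13 in whole brain. Klf10, a Krüppel-like repressor (1416029_at), responded by 0.94 ± 0.32 in pull-down and 0.40 ± 0.11 in whole brain. The factors with a response under 0 in pull-down were Jun, Npas4, Ier2, Klf4, Atf3 and Maff, at −0.36 to −0.01.

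The activity-induced effectors, the proteins that act at the synapse or in signalling, responded more positively in pull-down for 22 of 24 members, against 56.8% of all genes. After quantile normalization of the arrays it was 14 of 24, and without pull-down control 11 it was 16 of 24. Leaving out control 11 also moved the median difference over all probe sets from 0.028 to 0.106. The median response was 0.41 in pull-down and 0.15 in whole brain, and the median difference of 0.17 was 0.08 after quantile normalization. These counts and medians include Homer1, Ptgs2 and Nptx2. The study picked those genes on these samples, so their direction is no independent evidence. At an unadjusted p under 0.05, 6 of 24 were higher in pull-down, against 0.698% of genes, and 7 in whole brain, against 2.63%. Arc, which controls the removal of AMPA receptors from synapses (1418687_at), was called in whole brain, and so was Homer1, which is also on this list, at 2 probe sets other than the one that stands for it here. Arc read 7.45, 7.73 and 9.17 in pull-down SD and 5.74, 6.35 and 8.55 in pull-down control, with overlap, against 7.47, 7.18, 7.30 and 7.43 in whole brain SD and 6.31, 5.69, 6.03 and 6.45 in whole brain control, without. It responded by 1.24 ± 0.42 in pull-down and 1.22 ± 0.15 in whole brain, a difference of 0.01 (95% interval −1.16 to 1.19). Trib1, a pseudokinase, responded by 0.54 in pull-down and −0.10 in whole brain. The 2 members with the lower response in pull-down were Ccn1, a matricellular protein, with −0.80 ± 0.55 in pull-down and 0.13 ± 0.29 in whole brain, and the clock gene Per1, with 0.21 in pull-down and 0.42 in whole brain.

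Inhibitors that damp MAP kinase signalling were above 0 in both extracts for 11 of 11 genes, against 44.0% of genes in pull-down and 36.9% in whole brain, with a median response of 0.47 in pull-down and 0.25 in whole brain. At an unadjusted p under 0.05, 4 of 11 were higher in pull-down, against 0.698% of genes, and 6 in whole brain, against 2.63%. The difference was above 0 for 9 of 11, against 56.8% of all genes. It was above 0 for 6 of 11 after quantile normalization, and also without pull-down control 11. Dusp4, a nuclear phosphatase of MAP kinases (1428834_at), had the largest one. It read 6.51, 7.03 and 7.54 in pull-down SD and 5.42, 5.88 and 6.65 in pull-down control, against 6.46, 6.72, 6.47 and 6.75 in whole brain SD and 6.25, 6.51, 6.46 and 6.67 in whole brain control. The lowest of the sleep-deprived pull-downs was below the highest control, so the groups overlapped slightly, and the whole-brain groups overlapped nearly fully. The responses were 1.12 ± 0.26 and 0.13 ± 0.12, and the difference was 0.99 (95% interval 0.30 to 1.68, unadjusted p = 0.00666, adjusted p = 1). Dusp1 (0.73 and 0.77) and Dusp6 (0.67 and 0.61), phosphatases of the same family, responded by nearly equal amounts in pull-down and whole brain. Spry4, a sprouty inhibitor of receptor tyrosine kinase signalling, responded by 0.98 ± 0.22 in pull-down and 0.17 ± 0.13 in whole brain at 1445669_at, without overlap in pull-down. Its 3 other probe sets had differences of −0.14 to 0.08.

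The promoters of 3 of these genes are shown because the activity-induced genes moved together in the 2 extracts and the cyclic AMP response element (CRE) is the textbook element of such genes. Sequences are of 250 bases before to 50 after the start, from RefSeq on GRCm38.p6, with the short CRE core TGACG in capitals (CGTCA where it lies on the other strand).
Homer1 (chr13:93303507-93303806, plus strand): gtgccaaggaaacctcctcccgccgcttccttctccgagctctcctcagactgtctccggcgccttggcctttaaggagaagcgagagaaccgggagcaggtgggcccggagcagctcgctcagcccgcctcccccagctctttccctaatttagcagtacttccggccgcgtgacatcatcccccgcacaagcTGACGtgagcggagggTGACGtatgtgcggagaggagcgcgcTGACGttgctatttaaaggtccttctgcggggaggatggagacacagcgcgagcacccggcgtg
Ptgs2 (chr1:150099781-150100080, plus strand): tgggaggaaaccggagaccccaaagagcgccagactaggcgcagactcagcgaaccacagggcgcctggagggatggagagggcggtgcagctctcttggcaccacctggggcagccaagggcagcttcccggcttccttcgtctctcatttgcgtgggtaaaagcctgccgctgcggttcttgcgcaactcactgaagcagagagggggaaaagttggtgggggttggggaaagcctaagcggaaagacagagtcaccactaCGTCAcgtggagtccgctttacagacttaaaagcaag
Fos (chr12:85473640-85473939, plus strand): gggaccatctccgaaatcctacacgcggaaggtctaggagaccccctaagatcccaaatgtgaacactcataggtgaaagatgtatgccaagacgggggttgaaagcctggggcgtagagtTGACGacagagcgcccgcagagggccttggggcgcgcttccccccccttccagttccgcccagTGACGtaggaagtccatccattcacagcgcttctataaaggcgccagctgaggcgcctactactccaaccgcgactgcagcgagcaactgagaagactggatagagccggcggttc
Both strands were searched for TGACG, for the full CRE TGACGTCA, which contains it, and for the E-box CACGTG, which overlaps the core of Ptgs2. Homer1 held 3 cores (2 promoters are listed for it), Fos 2 and Ptgs2 1. TGACG was found for 14 of 17 activity-induced transcription factors and 12 of 18 effectors with a promoter in the table, against 23.0% of 27025 genes. TGACGTCA was found for 2 of 17 and 3 of 18, against 2.03%, and CACGTG for 3 of 17 and 6 of 18, against 8.09%. Among all measured genes, those with TGACG responded above 0 in 51.7% of 4336 in pull-down and 44.0% in whole brain, against 44.2% and 37.4% of the 14452 genes with a promoter. Their difference in response was above 0 in 57.5%, against 56.8%. A match is a run of letters and not a shown binding site.

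Genes induced by glucocorticoids had list medians of the response that were close in the 2 extracts, 0.41 in pull-down and 0.43 in whole brain. Of 25 genes, 16 had the lower response in pull-down and 9 the higher one, with a median difference of −0.06, against 56.8% of all genes above 0 and a median of 0.03. In each extract 23 of 25 responses were above 0. In limma, 4 of the 25 passed in whole brain (Sgk1, Plin4, Zbtb16 and Tsc22d3) and 0 in pull-down or as a difference. Hif3a, a hypoxia-inducible factor subunit, was called in whole brain at a probe set other than the one that stands for it in the list, 1447061_at, with 0.49 ± 0.46 in pull-down and 1.10 ± 0.14 in whole brain (adjusted p = 0.0193). At an unadjusted p under 0.05, 5 of 25 were higher in pull-down, against 0.698% of genes, and 20 in whole brain, against 2.63%. The SE of a response is larger in pull-down, so these counts do not compare the size of the responses. Over all the alternative settings the median ran from −0.20 to 0.00 and the number above 0 from 4 to 13.

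Sgk1, a serum- and glucocorticoid-regulated kinase (1416041_at), read 9.19, 9.73 and 9.87 in pull-down SD and 8.39, 9.18 and 9.82 in pull-down control, with overlap. It read 10.41, 10.56, 9.86 and 9.94 in whole brain SD and 8.92, 9.19, 9.08 and 8.96 in whole brain control, without overlap. It rose in whole brain by 1.16 ± 0.16 (adjusted p = 0.0208), and the response in pull-down was 0.45 ± 0.26. The difference was −0.71 (95% interval −1.40 to −0.01, unadjusted p = 0.0474, adjusted p = 1). Plin4, a coat protein of lipid droplets (1418595_at), read 4.72, 4.93 and 6.45 in pull-down SD and 3.18, 4.47 and 5.26 in pull-down control, against 6.92, 7.09, 6.87 and 6.70 in whole brain SD and 5.41, 5.53, 5.44 and 5.25 in whole brain control. It had the highest response of all probe sets in whole brain, 1.48 ± 0.12 (adjusted p = 0.00032), and 0.83 ± 0.37 in pull-down.

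Zbtb16, a zinc finger repressor (1419874_x_at), responded by 0.50 ± 0.25 in pull-down and rose by 0.97 ± 0.12 in whole brain. Tsc22d3, the glucocorticoid-induced leucine zipper (1420772_a_at), responded by 0.65 ± 0.26 in pull-down and rose by 0.89 ± 0.12 in whole brain. Map3k6, a stress-activated kinase (1449901_a_at), responded by −0.19 ± 0.32 in pull-down and 0.54 ± 0.14 in whole brain. Fkbp5, a co-chaperone of the glucocorticoid receptor, responded nearly equally at 0.51 and 0.56. Bcl6 (0.89 and 0.47) and Cebpb (0.36 and −0.18) were members with the higher response in pull-down.

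The promoter of Sgk1 is shown because it is 1 of 3 genes of 27025 (0.0111%) whose window held the palindromic glucocorticoid response element, AGAACA and TGTTCT with 3 bases between them, in capitals, and the 1 of 21 list genes with a promoter that did. It is 1 of 6 promoters listed for the gene.
Sgk1 (chr10:21993640-21993939, plus strand): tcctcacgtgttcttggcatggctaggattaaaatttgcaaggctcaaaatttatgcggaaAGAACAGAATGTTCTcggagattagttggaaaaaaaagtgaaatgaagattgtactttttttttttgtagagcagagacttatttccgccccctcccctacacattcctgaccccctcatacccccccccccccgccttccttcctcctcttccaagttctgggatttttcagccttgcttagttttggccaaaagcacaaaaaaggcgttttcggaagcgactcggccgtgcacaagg
The motif was searched on both strands in the same windows and did not overlap the E-box near the start of this one. The missing match in the other list genes says only that these letters are not in those windows.

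Chaperones of the ER and sensors of unfolded protein, which together keep secreted and membrane proteins folded, responded more positively in pull-down for 19 of 25 members. Of all genes, 56.8% did. The median response was 0.34 in pull-down and 0.13 in whole brain, and the median difference was 0.21, with 18 of 25 above 0 and a median of 0.09 after quantile normalization. Without pull-down SD 1 and controls 3 and 11, 17 of 25 were above 0 with a median of 0.14, where the median over all probe sets was 0.105. In limma, 0 of the 25 passed in either extract or as a difference. At an unadjusted p under 0.05, 6 were higher in pull-down, against 0.698% of genes, and 5 in whole brain, against 2.63%. In pull-down, 4 of the 25 had all sleep-deprived arrays above all controls, against 0.0550% of genes. These were Hspa5, Creld2, Sdf2l1 and Xbp1.

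Hspa5, the main ER chaperone BiP (1416064_a_at), read 10.72, 10.86 and 11.13 in pull-down SD and 8.43, 9.97 and 10.44 in pull-down control. It read 11.38, 11.55, 11.33 and 11.28 in whole brain SD and 10.80, 10.92, 11.12 and 10.78 in whole brain control. Neither pair overlapped. The response was 1.14 ± 0.30 in pull-down and 0.48 ± 0.12 in whole brain, and the difference was 0.66 (95% interval −0.12 to 1.45), or 0.39 without pull-down control 11, which had the reading of 8.43. Pdia3, an oxidoreductase that folds glycoproteins with calnexin and calreticulin (1423423_at), read 7.07, 7.79 and 8.87 in pull-down SD and 6.27, 6.85 and 7.65 in pull-down control, against 9.67, 9.72, 9.98 and 9.92 in whole brain SD and 9.80, 9.59, 9.78 and 10.04 in whole brain control. The responses were 0.93 ± 0.33 in pull-down and 0.02 ± 0.12 in whole brain. Sdf2l1, a partner of BiP (1418206_at), responded by 0.84 ± 0.23 in pull-down, without overlap, and 0.25 ± 0.14 in whole brain. Hsp90b1 (0.56 and 0.06), Canx (0.42 and −0.06), Dnajb11 (0.63 and 0.18) and Manf (0.76 and 0.28) had the same order. Ern1 (−0.24 and 0.23) and Syvn1 (−0.27 and 0.06) had the opposite one.

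Promoters of Hspa5 and Creld2 are shown because the ER stress response element (ERSE), CCAAT and CCACG with 9 bases between them, stood in 8 of the 22 list genes with a promoter, against 37 of 27025 genes (0.137%). The element is in capitals, and in Creld2 it lies on the other strand.
Hspa5 (chr2:34771840-34772139, plus strand): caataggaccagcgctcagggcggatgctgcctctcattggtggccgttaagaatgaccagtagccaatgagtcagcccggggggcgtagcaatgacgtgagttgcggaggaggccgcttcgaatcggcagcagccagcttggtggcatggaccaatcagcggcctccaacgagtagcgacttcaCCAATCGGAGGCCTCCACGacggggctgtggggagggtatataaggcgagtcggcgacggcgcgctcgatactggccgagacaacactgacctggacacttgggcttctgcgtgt
Creld2 (chr15:88819396-88819695, plus strand): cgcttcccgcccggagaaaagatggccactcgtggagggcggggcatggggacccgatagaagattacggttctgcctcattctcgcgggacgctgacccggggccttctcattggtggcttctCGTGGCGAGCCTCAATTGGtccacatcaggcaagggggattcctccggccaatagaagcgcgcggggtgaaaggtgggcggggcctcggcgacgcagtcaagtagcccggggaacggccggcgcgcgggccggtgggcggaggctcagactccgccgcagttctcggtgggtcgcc
The 8 were Hspa5, Hsp90b1, Dnajc3, Pdia6, Calr, Canx, Creld2 and Syvn1. Their median response was 0.49 in pull-down and 0.10 in whole brain, against 0.20 and 0.09 for the 14 list genes without a match. The median difference in response was 0.4 for the 8 and 0.12 for the 14, but it was above 0 for 6 of the 8 and 11 of the 14. Outside the list, 12 measured genes held the element, with median responses of −0.06 in pull-down and 0.02 in whole brain. These medians and counts describe few genes and were not tested.

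Of the cytosolic heat shock proteins, 10 of 16 responded more positively in pull-down, against 56.8% of all genes, with a median difference of 0.09. Without pull-down control 11 it was 7 of 16 with a median of −0.02, where the median over all probe sets was 0.106. Hspa1b, an inducible chaperone of the Hsp70 family (1452318_a_at), read 9.20, 10.08 and 10.26 in pull-down SD and 8.39, 9.22 and 9.47 in pull-down control, with overlap. In whole brain it read 6.66, 6.98, 6.48 and 6.37 in SD and 5.80, 6.85, 7.33 and 6.48 in control. The responses were 0.84 ± 0.26 in pull-down and 0.01 ± 0.25 in whole brain. Hspa1a and Hspa1b are near-identical genes whose probe sets can share transcripts, and Hspa1a itself responded by 0.36 and 0.15.

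The 21 probe sets called in whole brain offer a reading of pull-down arrays that took no part in the call. In pull-down 20 of the 21 had the same sign, 12 with a smaller and 8 with a larger size. Of all probe sets, 27.1% had the same sign with a smaller and 36.1% with a larger size. Egr2, Homer1 and Zbtb16 were each among the 21 by several probe sets, so these are not all separate genes. Of the 21, 11 had an unadjusted p under 0.05 in pull-down, against 0.955% of all probe sets. The 16 that rose in whole brain had a median response of 0.74 in pull-down and 1.02 in whole brain. The 5 that fell had a median of −0.48 in pull-down and −0.81 in whole brain. A response picked for passing a threshold tends to be read too large in the arrays that picked it, so the smaller medians in pull-down do not by themselves compare the extracts. With the Gapdh 3′ minus 5′ difference as a covariate limma called 0 probe sets in whole brain. Without whole brain SD 21, and likewise without SD 19, Plin4 alone was called.

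Dio2, the deiodinase that activates thyroid hormone (1418937_at), had responses of similar size. It read 8.01, 8.54 and 9.03 in pull-down SD and 7.22, 7.43 and 8.22 in pull-down control, against 10.48, 10.68, 10.20 and 10.72 in whole brain SD and 9.39, 9.64, 9.38 and 9.47 in whole brain control. The responses were 0.94 ± 0.25 and 1.05 ± 0.13, a difference of −0.11 (95% interval −0.77 to 0.55). Mertk, a receptor by which glia engulf debris (1422869_at), rose in whole brain by 0.72 ± 0.11 and had a response of 0.02 ± 0.39 in pull-down, where sleep-deprived array 1 alone, at 7.96, exceeded the mean of the controls. Zmym1, a zinc finger gene (1428052_a_at), rose in whole brain by 1.00 ± 0.15 and had a response of 0.20 ± 0.27 in pull-down, a difference of −0.79 (95% interval −1.53 to −0.05).

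Among those that fell in whole brain, Opalin, a membrane protein of myelin (1435854_at), had a response of −0.48 ± 0.27 in pull-down and −0.93 ± 0.13 in whole brain. Creb5, a transcription factor of the CRE-binding family (1457222_at), had −0.14 ± 0.39 in pull-down and −0.81 ± 0.13 in whole brain. Its mean in pull-down SD, 3.93, was toward the low end of these arrays, whose medians averaged 4.91. The estrogen receptor gene Esr1 (1421244_at) was the 1 call with the opposite sign. It read 2.59, 3.23 and 3.61 in pull-down SD and 2.72, 3.19 and 3.87 in pull-down control, at the low end of the arrays, against 3.68, 4.04, 3.78 and 3.84 in whole brain SD and 4.52, 4.72, 4.50 and 4.76 in whole brain control. Its pull-down response of 0.01 ± 0.26 is no opposite movement, and its 2 other probe sets responded by −0.32 and 0.10 in pull-down. The unnamed probe sets 1457137_at (−1.23 in pull-down and −0.78 in whole brain) and 1447223_at (−1.19 and −0.81) were lower in both.

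**Figure D3:**
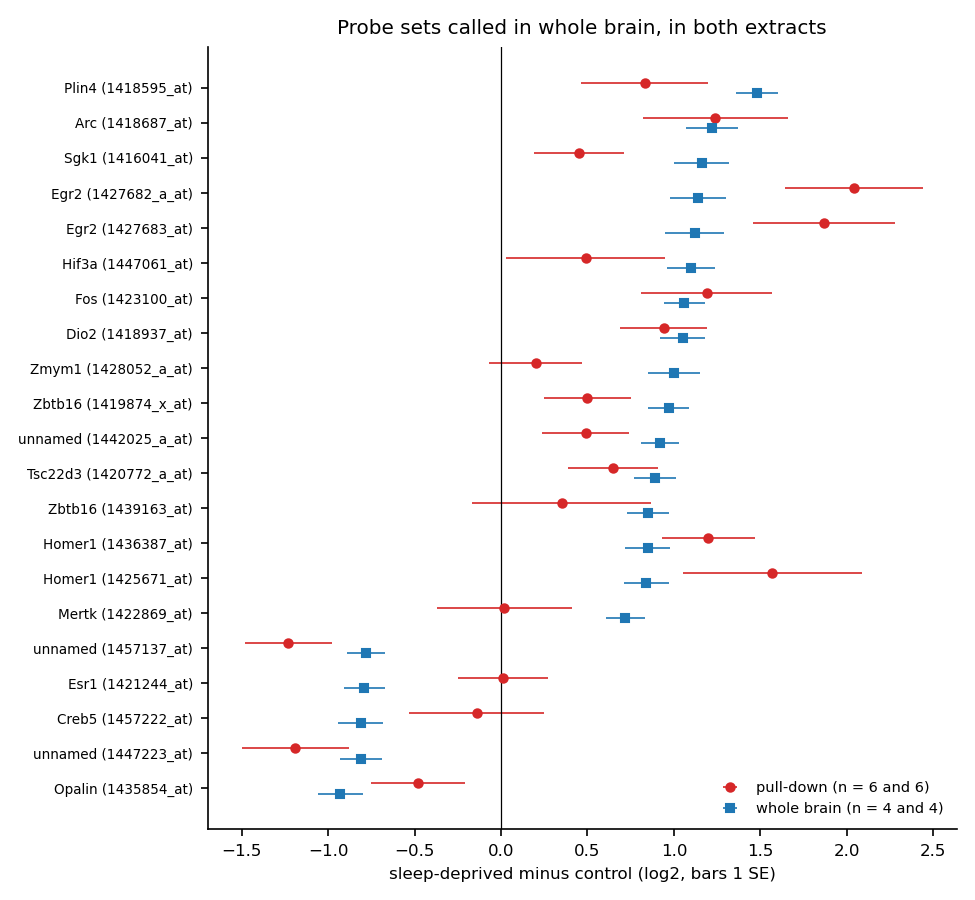
Sleep-deprived minus control difference (log2) in pull-down (red circles) and whole brain (blue squares) for the 21 probe sets called in whole brain, with bars of 1 SE. All but Esr1 have the same sign in both extracts; Egr2 and Homer1 lie higher in pull-down, and Plin4, Sgk1, Zmym1 and Mertk lie lower.

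In pull-down, 18 probe sets had all 6 sleep-deprived arrays above all 6 controls (0.0400% of all) and 8 had all below (0.0178%). In whole brain, 4 against 4 arrays, the shares were 1.75% and 4.25%. A random order separates 4 from 4 arrays more often than 6 from 6, so these shares do not compare the extracts. Both pull-down shares are smaller than a random order of 6 and 6 arrays gives, so separation alone marks no response. Of the 18, 16 were also above 0 in whole brain, 7 of them without overlap there, and all 18 had the larger response in pull-down, which the way they were picked favours. Beside genes given above they held Gpt2, an alanine aminotransferase (1.14 in pull-down and 0.66 in whole brain), Pfkfb3, which drives glycolysis (0.80 and 0.35), Creld2 (0.97 and 0.48), Dnajc3 at 1449373_at (0.57 and 0.02), and Srxn1, an antioxidant enzyme (0.50 and 0.09). The mean of Dnajc3 in pull-down SD, 3.55, was toward the low end of these arrays. Of the 8 below, 7 were below 0 in whole brain too. They held Arsb, a lysosomal sulfatase (−1.22 in pull-down and −0.49 in whole brain), Fabp4, a fatty acid-binding protein (−0.88 and −0.15), Pnma1 (−0.63 and −0.31) and Tmod2, a neuronal tropomodulin (−0.63 and −0.04). None of the 26 passed limma in pull-down with the values as deposited.

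The remaining function lists had median differences of −0.06 to 0.16. Clock genes had a median difference of 0.02 with 12 of 21 above 0, but −0.01 with 9 of 21 after quantile normalization, and −0.01 with 10 of 21 without pull-down control 11. Per2, a core clock repressor, responded by 0.92 in pull-down and 0.71 in whole brain, and Dbp, an output factor of the clock, by −0.60 and −0.18. Translation initiation factors and aminoacyl-tRNA synthetases had a median of 0.13 (21 of 29 above 0) and cytosolic ribosomal proteins 0.12 (20 of 25), led by Rps25, which responded by 1.04 ± 0.47 in pull-down and −0.12 ± 0.17 in whole brain. Group I glutamate receptors, Homer proteins and their scaffolds had 0.12 (7 of 12), glutamate and GABA receptors 0.11 (9 of 15), synaptic vesicle genes 0.10 (14 of 21) and the CREB family with its coactivators 0.16 (6 of 10). These values rested on 1 array: without pull-down control 11 the medians were 0.02 for group I receptors and scaffolds, −0.12 (7 of 15) for glutamate and GABA receptors, −0.09 (6 of 21) for synaptic vesicle genes and 0.03 for the CREB family. Translation factors and synthetases then had 0.03 (16 of 29) and ribosomal proteins 0.06 (15 of 25). Without control 11 the median over all probe sets was 0.106, against 0.028 with all arrays. Each of these list medians then lay below it. The lists hold only the probe set with the highest mean per gene, so the sets are unlike and this does not set the lists apart. Calcium release and entry had 0.05 (14 of 25), amino acid synthesis and transport 0.08 (12 of 20) and cholesterol synthesis 0.06 (14 of 19), and without pull-down control 11 these were −0.05, 0.02 and −0.02. Oxidative phosphorylation had 0.03 (26 of 39), or −0.01 (18 of 39) after quantile normalization and −0.08 (12 of 39) without pull-down control 11, and glycolysis genes had −0.06 (10 of 23). Thyroid hormone genes had −0.02 (3 of 8), or 0.02 after quantile normalization and without pull-down control 11. Cirbp, an RNA-binding protein induced by cold and lower in whole brain by 0.87 (a response of −0.87 ± 0.16), had −0.83 ± 0.30 in pull-down.

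**Figure D4:**
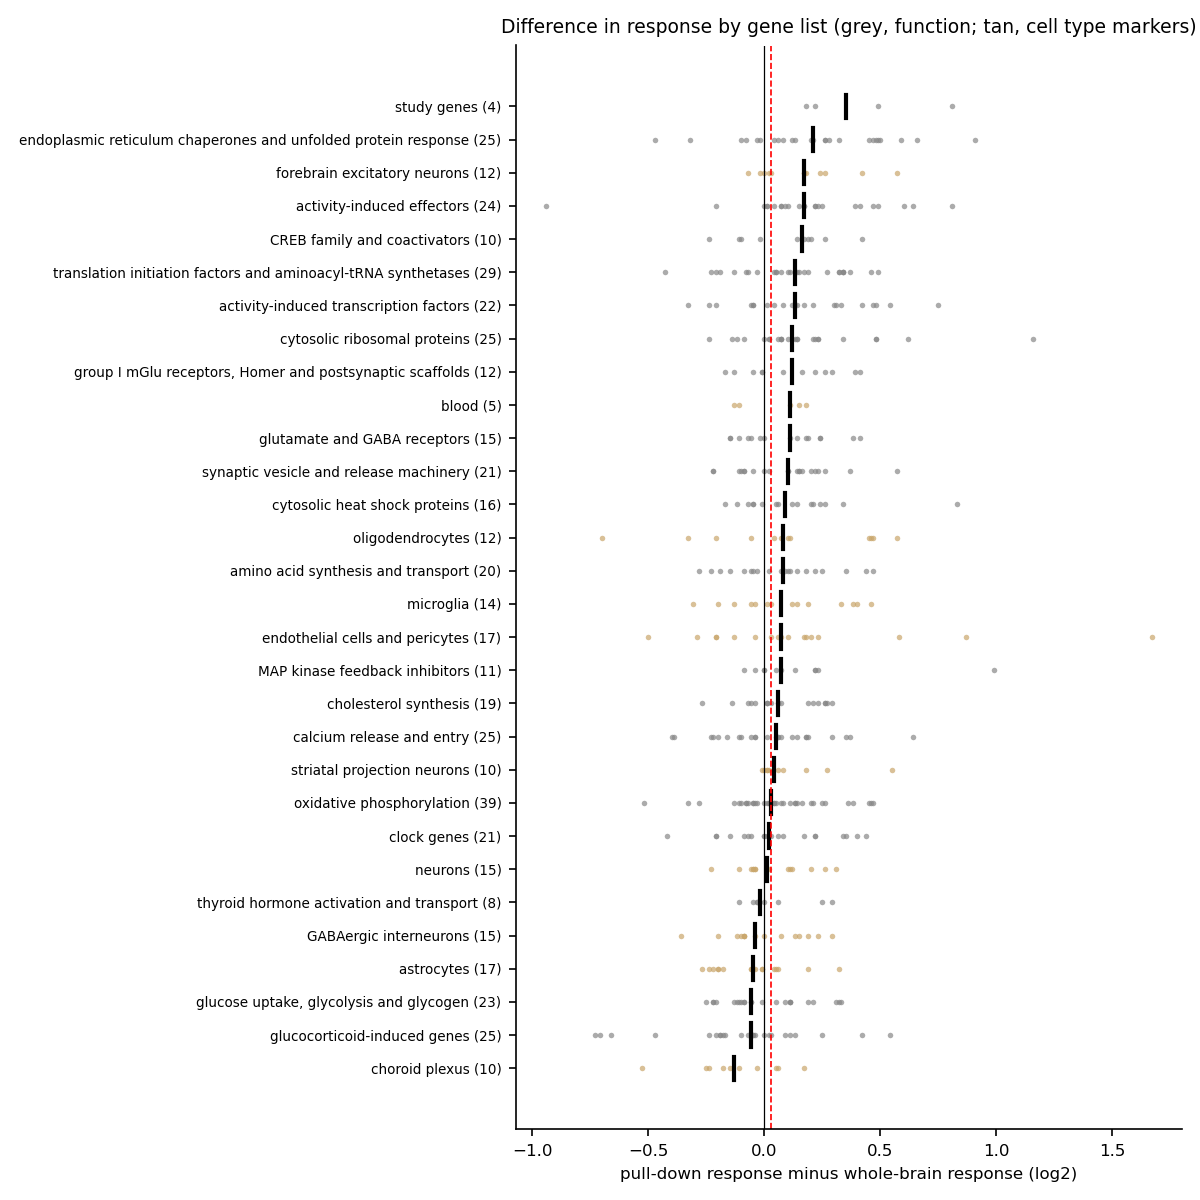
Difference in response (pull-down minus whole brain, log2) of each member of the function lists (grey) and cell type marker lists (tan), 1 probe set per gene, ordered by the list median (black bar); lists with 1 measured gene are left out, the number measured is in brackets, and the red dashed line is the median over 18193 genes. ER genes lie at the upper end with a median of 0.21 and glucocorticoid-induced genes near the lower end with −0.06.

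Markers of other cell types were read beside these lists. Their levels are unscaled, and array medians were lower in pull-down by about 1 unit. A lower marker level in pull-down is therefore no measure of fewer cells of that type. The mean level of 17 astrocyte markers was 7.68 to 8.42 over pull-down SD arrays and 7.66 to 8.22 over pull-down controls, against 9.32 to 9.37 in whole brain SD and 9.25 to 9.29 in whole brain control, and the median difference in response was −0.05 (5 of 17 above 0). The 12 oligodendrocyte markers had mean levels of 7.65 to 8.38 and 7.69 to 8.37 in pull-down SD and control, against 9.60 to 9.76 and 9.80 to 9.95 in whole brain SD and control, with a median difference of 0.08. The 17 endothelial and pericyte markers had 4.91 to 5.66 and 4.71 to 5.68 in pull-down SD and control, against 7.06 to 7.18 and 7.22 to 7.30 in whole brain SD and control. Microglia had a median difference of 0.07 (9 of 14 above 0) and blood 0.11 (3 of 5), against 0.03 over all genes. Choroid plexus had the lowest median of all lists, −0.13 (3 of 10), which ran from −0.19 to −0.04 over the alternatives. The 15 neuronal markers read 9.38 to 10.93 in pull-down SD and 8.83 to 10.65 in pull-down control, against 10.94 to 10.96 in whole brain SD and 10.82 to 10.94 in whole brain control. The 12 markers of forebrain excitatory neurons had a median difference of 0.17 (9 of 12 above 0), but −0.02 (6 of 12) without pull-down control 11 and −0.09 (4 of 12) without pull-down SD 1 and controls 3 and 11. The median of the 15 neuronal markers was 0.01 (8 of 15), and −0.14 (2 of 15) without control 11. The median over all probe sets was 0.106 without control 11 and 0.105 without pull-down SD 1 and controls 3 and 11. The 15 markers of GABAergic interneurons had −0.04 (6 of 15). No marker can be called absent, since log2 array values have no 0. The part of cell type composition in the responses was not tested.

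**Figure D5:**
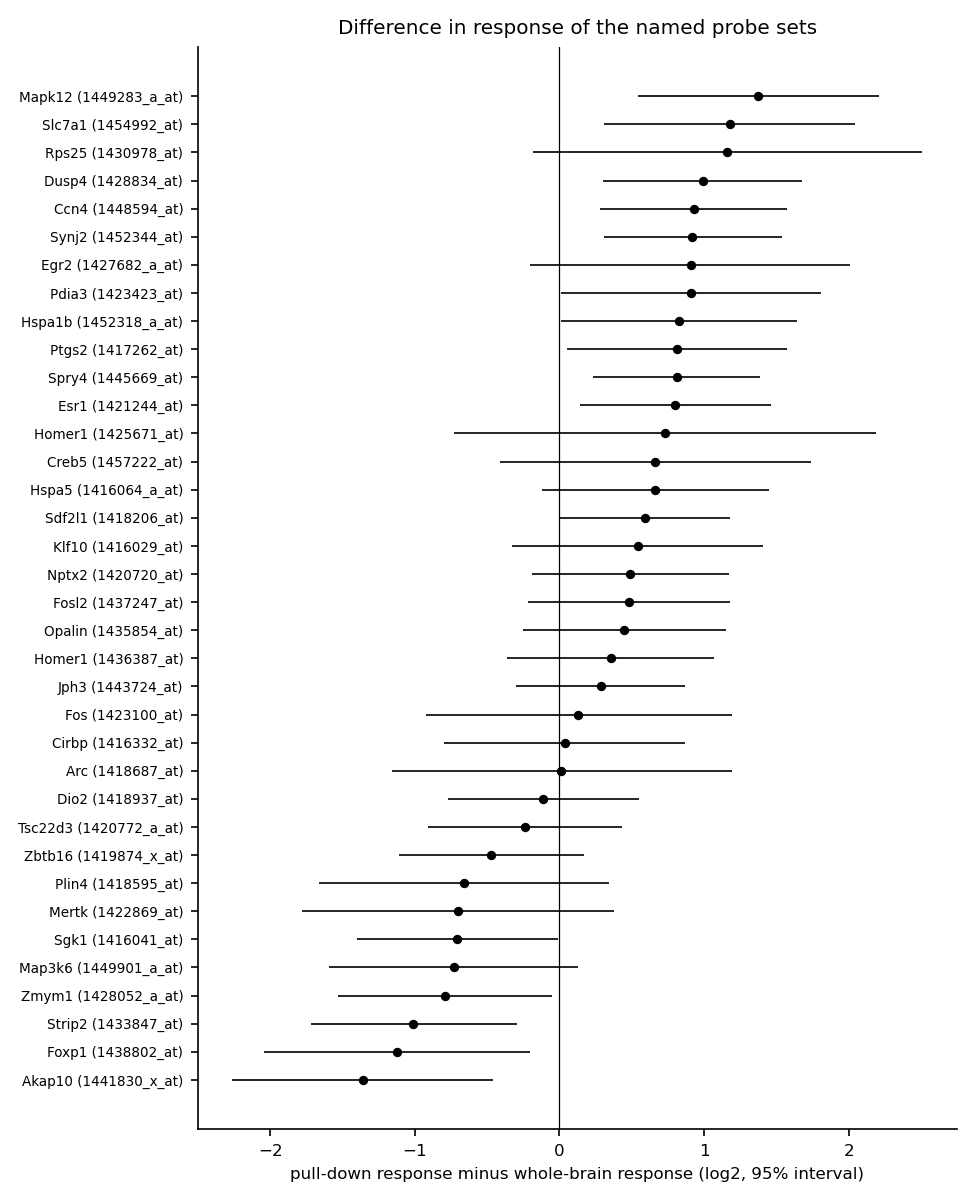
Difference in response (pull-down minus whole brain, log2) of 36 probe sets with its 95% interval from limma, ordered by size. Intervals for Mapk12, Slc7a1, Dusp4, Ccn4, Synj2, Spry4, Ptgs2, Esr1, Pdia3 and Hspa1b lie above 0 and those for Akap10, Foxp1, Strip2, Zmym1 and Sgk1 below it before adjustment for 45037 tests, after which no probe set passed.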

How the data were processed

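The deposited values are log2 intensities that the authors obtained with RMA in the affy package, per the submitters' processing notes. The sources used here give neither versions nor whether the extracts were normalized together. Array medians differed within and between extracts, so the deposited values still hold array-wide differences, and they were used unscaled with no filter. Of 45101 probe sets, 64 controls were left out. The array annotation gave exactly 1 gene symbol for 34945, several for 932 and none for 9160. Arrays have no read depth, and their number limits the precision. No array pair was identical, with a highest correlation of 0.991. All table columns used were mapped to samples (0 not mapped).

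Models were fitted with limma 3.58.1 (lmFit and eBayes) in R 4.3.3, two-sided, with Benjamini-Hochberg adjustment over all 45037 probe sets and a threshold of 0.05. The interaction used 1 fit of 20 arrays, and each response its own arrays (12 and 8), so that an interaction SE also holds the pooled spread. The procedure was run on simulated data with known differences. Their spread was independent between probe sets, unlike the array-wide components seen here, so what the test detects in these data was not shown. p-values measure the spread between these samples.

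There were 21 function lists and 10 marker lists, 550 genes of which 492 were measured, each by its probe set with the highest mean. Where arrays were left out, list medians stand beside the median over all probe sets, dim ones included, which is not a like baseline. Some genes stand in several lists. Named genes were the 10 with the smallest interaction p in each direction (none passed), those called in whole brain, all probe sets of Homer1, Ptgs2, Jph3 and Nptx2, the 3 members per function list with the largest difference, and genes with opposite signs at an unadjusted p under 0.05 in each extract. Other list members, and probe sets without overlap in pull-down, were named as examples after their values were seen. Members, lists and motifs were chosen with earlier results of these data known. Motifs were searched in 32851 RefSeq promoters of GRCm38.p6 (27025 genes). Alternatives changed the scaling, arrays, covariates, weights, filter and pooling of the spread, and are described at the end.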

Additional observations from a re-analysis of the deposited data

Results flagged for a closer look

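Single arrays that stood apart from their group by Dixon's test at 95% were found in 10 of 156 groups of values tested, close to the 1 in 20 that chance gives. In pull-down control 11, Homer1 (1436387_at) read 8.82, below the other controls. The same array had a Gapdh 3′ minus 5′ difference of 3.29, the lowest of its group. In pull-down SD 1, Arc read 9.17 and Mertk 7.96, each above the other 5 arrays. In pull-down SD 3, Slc7a1 (1454992_at) read 7.33, above the rest. In whole brain, Ptgs2 (1417262_at) read 5.50 in SD 21, below the other 3, and Klf10 read 8.0 in SD 18, above them. Fos read 6.11 in whole brain control 24, Foxp1 (1438802_at) 6.51 in control 22 and Strip2 5.93 in control 22. No test of the difference between the 2 extracts passed, so no gene is listed here for responding differently.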

How the results depend on the processing

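The interaction had 0 calls under all 30 alternatives, with 97 to 2230 probe sets at an unadjusted p under 0.05 and a lowest adjusted p of 0.268 (array weights). In pull-down, calls numbered 3 in 1 fit of all 24 arrays (Egr2 and Spry4 higher, Arsb lower), 2 with array weights (Arsb and 1457137_at, lower), 1 with the 18S covariate (Homer1, 1425671_at) and 0 to 1 when leaving out 1 array (Egr2 without control 8). In whole brain, calls numbered 51 after quantile normalization (42 higher, 9 lower), 46 after centring, 57 over probe sets above the median level, 2 with the 18S covariate (Plin4 and Fos), 0 with the Gapdh covariate, 0 in the fit of 24 arrays, where the spread includes pull-down, and 1 to 16 when leaving out 1 array (1 without SD 21 or SD 19, 13 without SD 18, 10 without SD 20, 6, 12 and 8 without controls 24, 22 and 25). Those with the same sign in pull-down numbered 47, 43, 52, 2, 0 and 0 under the same settings, and 1 to 21 when leaving out 1 array. The cause of these shifts was not tested. The correlation of the responses ran from 0.088, without pull-down SD 1 and controls 3 and 11 (left out after seeing the data), to 0.344. All 929 list medians moved by less than 1 SD of the arrays, a wide yardstick: the medians of 19 of 31 lists changed sign under some alternative and those of 11 without pull-down control 11, such as synaptic vesicle genes (−0.12 to 0.25), neuronal markers (−0.17 to 0.19), forebrain excitatory markers (−0.09 to 0.24) and MAP kinase inhibitors (−0.01 to 0.17). Of 36 probe sets followed, 31 kept the sign of their difference in every alternative, and 24 of 1075 values changed sign (Arc 10, Cirbp 8, Fos 4, Homer1 1436387_at 1 and Dio2 1). The use of 2 residual components as covariates was also chosen after seeing the data. No paired analysis was possible because pull-down SD and control share only the number 3 and the other groups share none.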
